A study of Mus musculus with 2 samples.

Results

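NRF2 and the antioxidant enzymes form a defence network of 38 genes here, chosen by name from the 44792 rows of the deposited count table and grouped by system (regulators, iron and heme, glutathione, thioredoxin, superoxide and peroxide, NADPH supply, and quinone, export and other targets). All 38 had a row. They were measured by RNA sequencing in OCCM-30, an immortalized mouse line with features of cementoblasts, the cells that lay down cementum on tooth roots. The compressed group was wild type OCCM-30 cells put under compressive force, and the control group was wild type OCCM-30 cells labelled control, with 1 library in each. Both came from a single cell line, and how large the force was and how long it lasted is not stated in the sources used here.

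NRF2, encoded by Nfe2l2, is a transcription factor that KEAP1 holds in the cytoplasm and hands over for degradation. Oxidants and electrophiles modify KEAP1, and NRF2 then builds up, pairs with a small MAF protein and binds antioxidant response elements (AREs) near genes for glutathione and thioredoxin enzymes, NADPH supply, heme breakdown and drug export. Compression of cells around tooth roots is used to model orthodontic loading.

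The libraries held 24296292 counts (compressed) and 25049919 counts (control). Levels are counts per 1000000 counts (CPM) after trimmed mean of M-values (TMM) scaling, not corrected for gene length, so they compare libraries and not genes. Ratios are of the compressed over the control library, with an exact 95% conditional binomial interval that covers counting error only. With 1 library per group no difference has a replicate check and no p-value was computed: the values compare 2 libraries, not the conditions. Of the osteoblast and cementoblast markers, 9 of 12 passed 1 CPM, among them Runx2, Sp7, Alpl, Spp1 and Col1a1. The cementoblast marker Ibsp had 0 counts in both libraries. Bglap, with 12 counts (compressed) against 11 (control), and Dmp1, with 24 against 14, also fell under 1 CPM. Of the 9 that passed, Runx2 was lower in the compressed library, at 182 against 231 CPM (0.787, 0.757 to 0.819). Spp1, Sparc, Col1a1 and Col1a2 had intervals above 1 with ratios of 1.03 to 1.10. The macrophage, epithelial and endothelial markers passed in 2 of 6, 1 of 6 and 2 of 5 cases, and their summed levels were 8.07, 1.94 and 4.32 CPM in the compressed library against 7.66, 1.84 and 4.15 CPM in the control library.

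The compressed library held more transcripts of the 4 heme and iron genes among the 38, led by heme oxygenase 1 (Hmox1, 1.77-fold), while further heme and iron genes lay on both sides (10 above 1 and 13 below). It also held more of the glutathione transferase Gstm1 (1.63-fold) and catalase (Cat, 1.32-fold). It held fewer transcripts of thioredoxin reductase 1 (Txnrd1, ratio 0.680) and peroxiredoxin 1 (Prdx1, ratio 0.840). The Prdx1 ratio did not reach the limit of 0.8 used for calls below. The Txnrd1 ratio rests on 202 against 307 counts, which are uncertain because its span overlaps that of Eid3. Of the 7 systems, iron and heme alone had all its measured genes among the 38 on the higher side. The systems were chosen with earlier results of these data known, and the share of all genes above 1 was not computed. At an assumed coefficient of variation of 0.1 between cultures, the intervals of its genes Fth1 and Ftl1 included 1.

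Of the 38 genes, 35 passed the minimum of 1 CPM in either library, and all 35 had at least 8.32 CPM in both. A gene was called when the libraries differed at least 2-fold and its interval excluded 1. By that rule 0 of the 35 were called higher and 0 lower, against 3.06% and 0.929% of the 14001 genes above the minimum and 1.07% and 0.0432% of the 9255 mRNAs in the same CPM range (8.32 to 544 CPM). A weaker limit asked for a level at least 25% higher, or a ratio no greater than 0.8, with an interval excluding 1 (the 25% rule). It called Hmox1, Gstm1, Blvrb, Cat and Gsta4 higher, 5 of 35 (14.3%, against 14.3% of all genes), and Txnrd1 lower, 1 of 35 (2.86%, against 11.4% of all genes). In that CPM range the shares by this rule were 11.7% and 10.8%. The median log2 ratio was 0.02 over the 35 genes and -0.01 over all genes above the minimum.

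The counting interval lay above 1 for 15 of the 35 genes and below 1 for 9, against 26.3% and 28.6% of all genes. Narrow intervals come with depth, and in the same CPM range those shares were 28.8% and 35.4%. The remaining 11 genes had intervals that included 1. If a coefficient of variation of 0.1 between cultures is assumed, 4 of the 24 intervals still exclude 1, those of Hmox1, Blvrb and Gstm1 above it and that of Txnrd1 below it. The share of all genes whose intervals still exclude 1 was not computed.

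**Figure D1:**
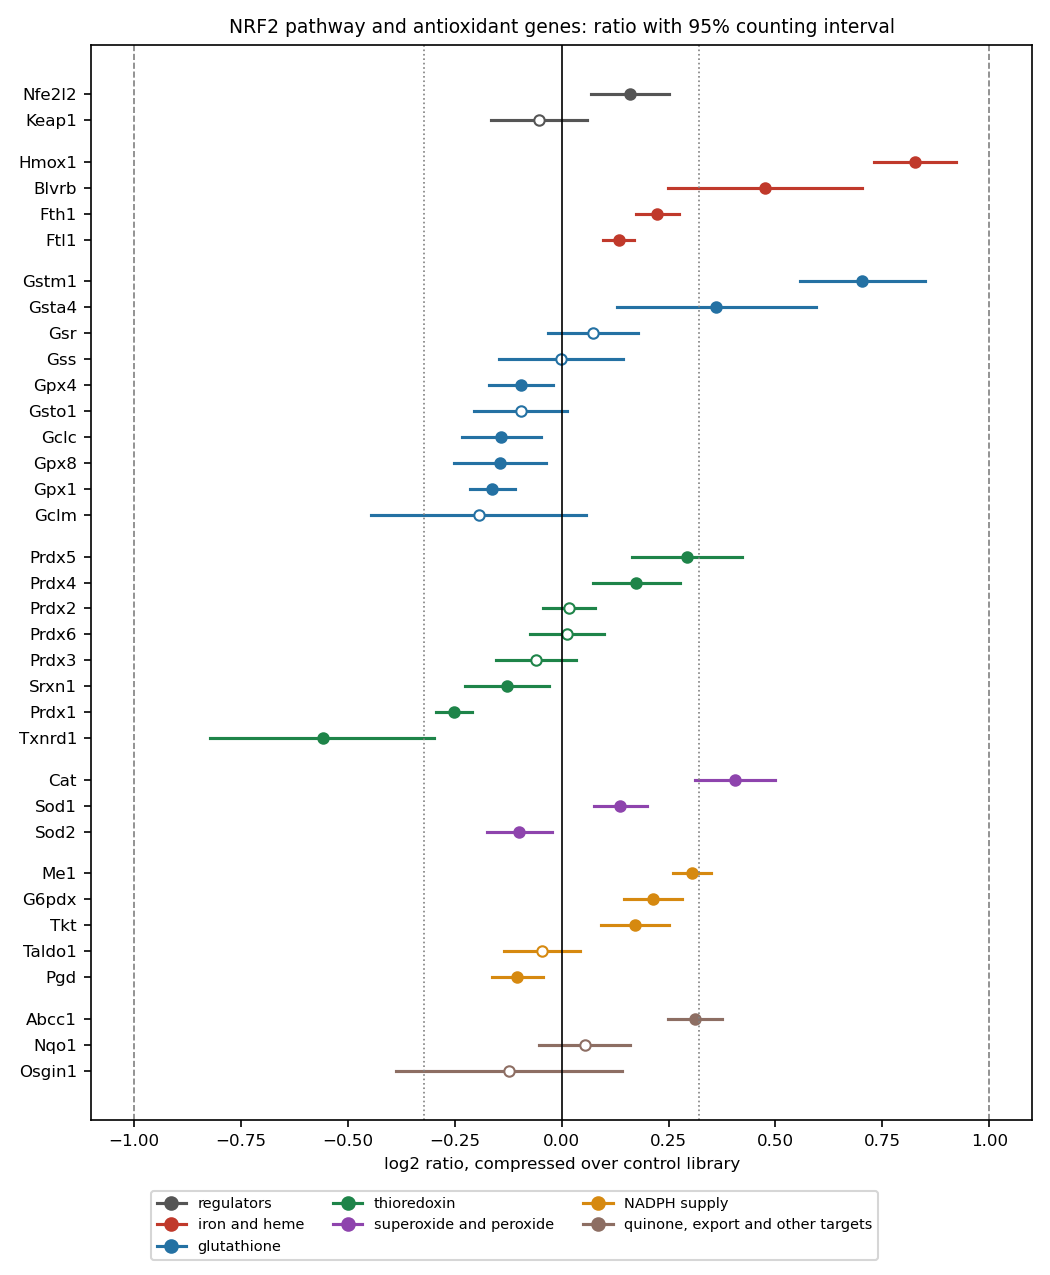
Log2 ratio of the compressed over the control library for the 35 genes above 1 CPM, grouped and coloured by system. Bars are 95% counting intervals, open circles have intervals that include no change, and the dotted and dashed lines mark the 25% rule and 2-fold. Hmox1 at 0.83 and Gstm1 at 0.70 lie farthest to the right, Txnrd1 at -0.56 lies farthest to the left, and all points lie inside the 2-fold lines.

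The regulators differed little. Nfe2l2, which encodes NRF2, had 2009 counts (82.7 CPM) in the compressed library against 1856 counts (74.1 CPM) in the control library, a ratio of 1.12 (1.05 to 1.19). Keap1, its inhibitor, had 1257 counts (51.8 CPM) against 1345 counts (53.7 CPM), a ratio of 0.964 (0.892 to 1.04). The Nfe2l2 interval lay above 1 and that of Keap1 included 1. NRF2 activity is set largely through the stability of the protein, which RNA counts do not measure.

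Among 14 further regulators, 13 passed the minimum, with 3 called higher by the 25% rule, 0 lower and a median log2 ratio of 0.15. By this rule 14.3% of all genes were called higher and 11.4% lower, the shares against which the counts of each further list stand. Maff, a small MAF that can pair with NRF2, was the one past 2-fold, with 1173 counts against 557 and a ratio of 2.17 (1.96 to 2.41). The other small MAF genes Mafg and Mafk had ratios of 0.974 (0.934 to 1.02) and 0.952 (0.881 to 1.03). Their counting intervals did not reach that of Maff. Bach1, a heme-sensing repressor that competes with NRF2 at Hmox1 and other targets, had 2171 against 1707 counts and a ratio of 1.31 (1.23 to 1.40). Nfe2l3, an NRF2 relative, had 57 counts against 31 and a ratio of 1.88 (1.20 to 3.04). The lowest were Cul3, the ubiquitin ligase scaffold that KEAP1 works with, at 0.817 (0.788 to 0.847), and the mitochondrial phosphatase Pgam5 at 0.833 (0.776 to 0.894).

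NRF2 acts through the ARE, so the start regions of the genes are shown beside their ratios. RefSeq windows on GRCm38.p6, from 250 bases before to 50 bases after an annotated transcript start, matched 31 of the 38 genes (42 windows). Hmox1, Gclc, Gsr, Gsta4, Prdx6, Sod3 and Abcc1 had none. The ARE core was searched as TGACNNNGC on both strands and found for 10 of the 31 genes, against 14.0% of the 27025 genes in the table (12.4% of its 32851 windows). Below are stretches around the core for 6 of those genes, chosen because their ratios fall on both sides of 1. Each is on the strand of the gene, 5′ to 3′, and capitals mark the core or its reverse complement. The start behind the stretch of Txnrd1 lies 25255 bases inside the gene, at another transcript start than its first, and that of Gclm lies 70 bases inside. The other 4 starts are the outermost of their genes.
Me1, chr9:86695905-86695960, minus strand: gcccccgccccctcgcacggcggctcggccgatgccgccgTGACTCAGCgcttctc
Prdx1, chr4:116685426-116685514, plus strand: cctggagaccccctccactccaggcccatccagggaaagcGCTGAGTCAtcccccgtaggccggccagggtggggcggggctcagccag
G6pdx, chrX:74428889-74428977, minus strand: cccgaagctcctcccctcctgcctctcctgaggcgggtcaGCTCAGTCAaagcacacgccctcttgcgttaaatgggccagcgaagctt
Txnrd1, chr10:82859074-82859162, plus strand: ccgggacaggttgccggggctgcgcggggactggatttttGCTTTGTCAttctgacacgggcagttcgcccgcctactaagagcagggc
Sod1, chr16:90220666-90220754, plus strand: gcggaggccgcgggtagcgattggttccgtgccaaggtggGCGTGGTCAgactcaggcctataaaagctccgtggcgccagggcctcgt
Gclm, chr3:122245383-122245471, plus strand: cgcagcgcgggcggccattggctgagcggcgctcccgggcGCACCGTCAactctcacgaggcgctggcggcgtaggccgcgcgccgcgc

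Me1 and Prdx1 carried the same 9 letters, TGACTCAGC when read in the motif's direction, which also hold the AP-1 site TGACTCA. In Me1 the core began 6 bases before the transcript start, and in Prdx1 it began 133 bases before it on the opposite strand. The ratio of Me1 lay above 1 and that of Prdx1 below 1, as given with their systems. Of the 10 genes with a core, 9 passed the CPM minimum, since Mgst1 had no counts. Among these 9 the ratio was above 1 for 4 (Nfe2l2, Sod1, G6pdx, Me1) and below 1 for 5 (Gclm, Prdx1, Txnrd1, Srxn1, Pgd), with a range of 0.680 to 1.24. The 20 measured genes with a window and no core split 10 and 10. A match is a run of letters in these windows and not a bound site. A gene without a match may still have an ARE outside these windows, where no search was made. The 2 sets are therefore not genes with and without an ARE. A second motif, the core of the hypoxia response element ACGTG on both strands, was found for 9 of the 31 genes (Blvrb, G6pdx, Gclm, Gpx1, Gpx8, Gstm1, Keap1, Me1 and Prdx4), against 21.8% of all genes in the table.

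Iron and heme genes were the system in which all 4 genes lay above 1, each with an interval above 1. Hmox1, which opens the heme ring to give biliverdin, iron and carbon monoxide, had 2423 counts (99.8 CPM) in the compressed library against 1410 counts (56.3 CPM) in the control library. Its ratio of 1.77 (1.66 to 1.89) was the highest of the 35, and the gene lies on chromosome 8 at 75093618 to 75100593 (GRCm38). Blvrb, biliverdin reductase B, which also reduces flavins, had 380 counts (15.6 CPM) against 282 counts (11.3 CPM), a ratio of 1.39 (1.19 to 1.63). These 2 genes held the larger ratios of the system. Blvra, the reductase for the form of biliverdin that heme oxygenase makes, is not one of the 38 and had 491 against 455 counts, with a ratio of 1.11 (0.978 to 1.27) whose interval included 1.

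The ferritin chains, which store iron, had smaller ratios at high counts. Fth1, the heavy chain with ferroxidase activity, had 6724 counts (277 CPM) against 5941 counts (237 CPM), a ratio of 1.17 (1.13 to 1.21). Ftl1, the light chain, had 13204 counts (544 CPM) against 12427 counts (496 CPM), a ratio of 1.10 (1.07 to 1.12). Both lay above 1 under each of 5 scalings, but the scalings differ little and moved only 1 of the 35 genes (Gss) across 1. At an assumed coefficient of variation of 0.1 between cultures, the intervals of Fth1 and Ftl1 included 1. Ferritin genes have many retrocopies, and how reads matching several of them were handled is not stated: the copy Fth-ps2 had 110 counts against 83 and Ftl2 had 17 against 6.

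Other iron and heme genes did not move as one. Of 24 further genes, 23 passed the minimum, 2 were called higher and 3 lower by the 25% rule, and the median log2 ratio was -0.08. Hmox2, the constitutive heme oxygenase, had 1724 counts against 1725 and a ratio of 1.03 (0.964 to 1.10), so its counting interval lay apart from that of Hmox1. The highest were Ppox, an enzyme late in heme synthesis, with 1021 counts against 555 and a ratio of 1.90 (1.71 to 2.11), and Slc40a1, the iron exporter ferroportin and an NRF2 target, at 1.33 (1.13 to 1.58). The lowest were Flvcr1, described as a heme exporter and listed under its older name Mfsd7b, at 0.668 (0.609 to 0.731), and the ferrireductase Steap3, whose interval of 0.432 to 1.27 included 1. The iron importer Slc11a2 and the heme synthesis gene Uros were also called lower, at 0.755 (0.714 to 0.798) and 0.786 (0.670 to 0.920).

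**Figure D2:**
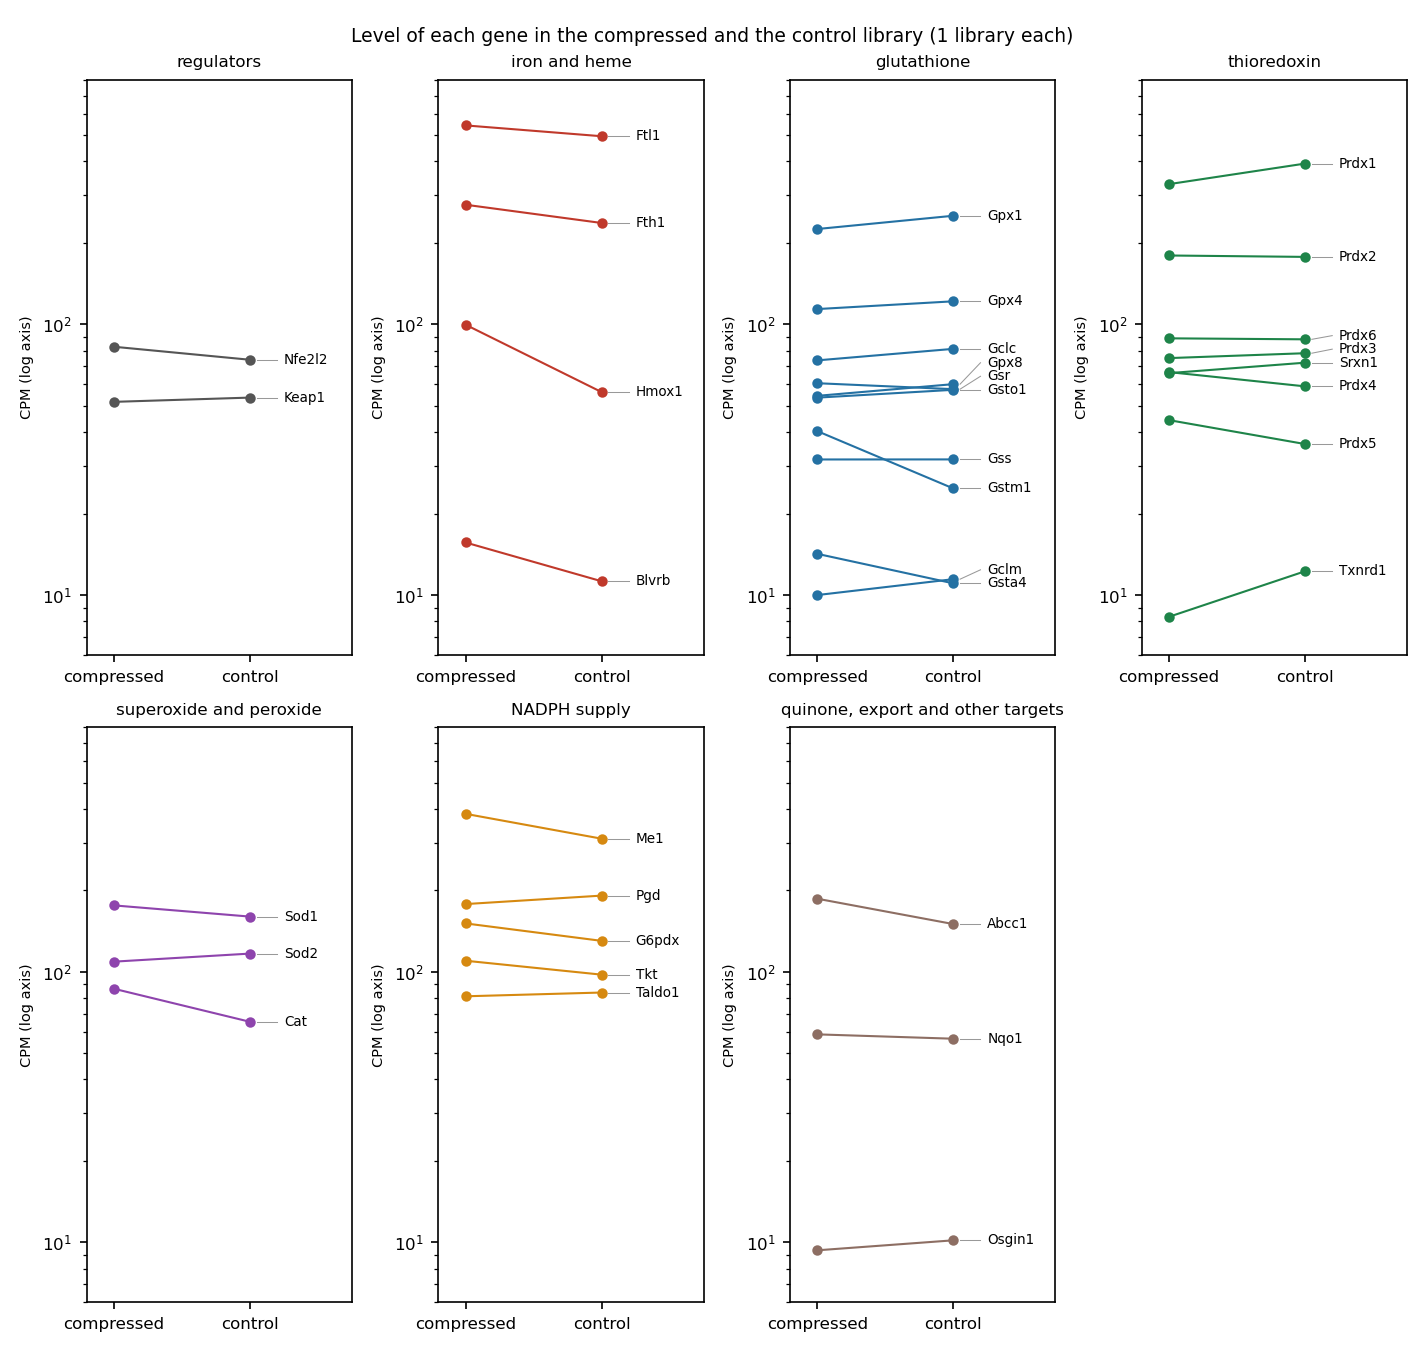
CPM (log axis) of each of the 35 genes in the compressed library (left of each panel) and the control library (right), with 1 panel per system and a line joining the values of 1 gene. CPM is not corrected for length, so slopes and not heights can be compared between genes. All 4 iron and heme lines go down towards the control library, while Txnrd1 and Prdx1 go up towards it, at 8.32 against 12.3 CPM and 330 against 393 CPM.

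The 10 measured glutathione genes lay on both sides of 1, 3 above and 7 below. Synthesis of the tripeptide runs through glutamate-cysteine ligase and glutathione synthetase. Gclc, the catalytic subunit of the ligase, had 1789 counts (73.7 CPM) in the compressed library against 2036 counts (81.2 CPM) in the control library, a ratio of 0.907 (0.850 to 0.967). Gclm, its modifier subunit, had 243 counts (10.01 CPM) against 287 counts (11.5 CPM), a ratio of 0.874 (0.733 to 1.04). The Gclc interval lay below 1 and that of Gclm, with fewer counts, included it. Gss, the synthetase, had 770 counts against 795 and a ratio of 0.999 (0.904 to 1.10). Gsr, which uses NADPH to return oxidized glutathione to its reduced form, had 1473 counts against 1445 and a ratio of 1.05 (0.978 to 1.13). Both intervals included 1. The ratio of Gss crossed 1 under upper-quartile and loess scaling, and under loess scaling the interval of Gsr lay above 1. The span of Gclm overlaps the pseudogene Gm6061, which had 143 counts against 174. That of Gsr overlaps the pseudogene Gm17803, which had 130 against 102. How reads shared by overlapping genes were handled is not stated, so the counts of Gclm and Gsr are less certain.

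The measured members of the glutathione peroxidase family, which reduce peroxides and mostly draw on glutathione to do so, all lay slightly below 1. Gpx1, the cytosolic enzyme, had 5469 counts (225 CPM) against 6317 counts (252 CPM), a ratio of 0.893 (0.861 to 0.926). Gpx4, which reduces lipid peroxides in membranes, had 2768 counts (114 CPM) against 3051 counts (122 CPM), a ratio of 0.936 (0.889 to 0.986). Gpx8, a peroxidase of the endoplasmic reticulum, had 1323 counts (54.5 CPM) against 1508 counts (60.2 CPM), a ratio of 0.905 (0.840 to 0.975). All 3 intervals lay below 1, and with loess scaling that of Gpx1 alone did. The other endoplasmic reticulum peroxidase, Gpx7, had no counts in either library, a result that still permits levels up to 0.124 CPM (compressed) and 0.120 CPM (control).

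Among the transferases, which attach glutathione to electrophiles, 2 of 3 measured genes lay above 1. Gstm1 had 980 counts (40.4 CPM) in the compressed library against 621 counts (24.8 CPM) in the control library, a ratio of 1.63 (1.47 to 1.80) on chromosome 3 at 108012250 to 108017973. Gsta4, which clears the lipid peroxidation product 4-hydroxynonenal, had 345 counts (14.2 CPM) against 277 counts (11.1 CPM), a ratio of 1.28 (1.09 to 1.51). Gsto1, of the omega class, had 1303 counts against 1437 and a ratio of 0.936 (0.867 to 1.01), so its interval included 1. Mgst1, a membrane-bound transferase, had no counts either, with the same limits as Gpx7.

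The mu-class transferases are close copies of one another, so reads may be shared between them. The neighbours Gstm2 and Gstm5 had 452 counts against 400 and 455 against 388, with ratios of 1.17 (1.02 to 1.34) and 1.21 (1.05 to 1.39). All 3 lay above 1, and the Gstm1 counting interval did not overlap those of Gstm2 and Gstm5.

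Of 39 further glutathione genes, 24 passed the minimum, 3 were called higher and 1 lower by that rule, with a median log2 ratio of 0.22. Mgst2, a membrane-bound transferase, was past 2-fold but had few counts, 54 against 17, for a ratio of 3.21 (1.87 to 6.03). Chac1, which degrades glutathione and responds to ATF4, had 1335 against 925 counts and a ratio of 1.49 (1.37 to 1.62). The lowest were the glutaredoxins Glrx5 at 0.793 (0.711 to 0.883), which acts in iron-sulfur cluster assembly, and Glrx3 at 0.854 (0.805 to 0.904). Slc7a11, the cystine importer and an NRF2 target, had 1027 counts against 1135, for a ratio of 0.934 whose interval, 0.857 to 1.02, included 1.

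The thioredoxin system passes electrons from NADPH through thioredoxin reductase and thioredoxin to the peroxiredoxins, which reduce hydrogen peroxide. Txnrd1, the cytosolic reductase and an NRF2 target, had 202 counts (8.32 CPM) in the compressed library against 307 counts (12.3 CPM) in the control library. Its ratio of 0.680 (0.566 to 0.814) was the lowest of the 35. It lies on chromosome 10 at 82833951 to 82897724, where its span overlaps that of Eid3, which had 163 counts against 210. The strand setting and the handling of reads shared by overlapping genes are not given, so the Txnrd1 counts are uncertain.

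Of the 14 further genes around thioredoxin, 4 had intervals above 1 and 4 below, against 26.3% and 28.6% of all genes. Among the 38, Srxn1, sulfiredoxin, which repairs overoxidized peroxiredoxins and is an NRF2 target, had 1605 counts (66.1 CPM) against 1810 counts (72.2 CPM), a ratio of 0.915 (0.855 to 0.979), though its interval included 1 under loess scaling. Thioredoxin itself, Txn1, had 3020 against 3598 counts and a ratio of 0.866 (0.825 to 0.909). Txnrd3, a reductase best known from testis, had 421 against 293 counts and a ratio of 1.48 (1.27 to 1.73), while Txnrd2, the mitochondrial one, had 308 against 355, a ratio of 0.895 (0.766 to 1.05). The counting intervals of Txnrd1 and Txnrd3 did not overlap. The 14 further genes all passed the minimum, 1 was called higher (Txnrd3) and 0 lower by the 25% rule, and the median log2 ratio was -0.07. The next highest was the methionine sulfoxide reductase Msrb1, itself a selenoprotein, at 1.17 (1.08 to 1.27), and the lowest was Msrb2 at 0.725, with an interval of 0.475 to 1.09. The intervals of Nxn (1.10, 1.03 to 1.17) and Sesn2 (1.10, 1.01 to 1.20) also lay above 1. Those of Txn2 (0.903, 0.857 to 0.952), Sesn1 (0.898, 0.811 to 0.994) and Msrb3 (0.945, 0.895 to 0.997) lay below 1, as did that of Txn1.

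The 6 peroxiredoxins went both ways. Prdx1, the cytosolic form and an NRF2 target, had 8012 counts (330 CPM) in the compressed library against 9847 counts (393 CPM) in the control library, a ratio of 0.840 (0.815 to 0.865). Prdx5, found in mitochondria, peroxisomes and cytosol, had 1076 counts (44.3 CPM) against 906 counts (36.2 CPM), a ratio of 1.23 (1.12 to 1.34). Prdx4, the form of the endoplasmic reticulum, had 1619 counts (66.7 CPM) against 1480 counts (59.1 CPM), a ratio of 1.13 (1.05 to 1.21). The counting intervals of Prdx4 and Prdx5 lay above 1 and that of Prdx1 below 1, and the Prdx1 interval did not overlap the others. At an assumed coefficient of variation of 0.1 between cultures, all 3 intervals included 1. Prdx5 overlaps Trmt112, which had 290 against 339 counts and a ratio of 0.883 (0.752 to 1.04).

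The other peroxiredoxins held close to 1. Prdx2, a cytosolic form, had 4366 counts against 4452 (ratio 1.01, 0.970 to 1.06), and Prdx6, which also has phospholipase activity, had 2158 against 2208 (1.01, 0.950 to 1.07). Prdx3, the mitochondrial form, had 1824 counts against 1962 (0.959, 0.900 to 1.02). All 3 intervals included 1. Summed over the family, counts were 19055 against 20855, a ratio of 0.943 (0.924 to 0.962), and the difference in counts was largest for Prdx1. Of the 6, Prdx1 alone had an interval below 1, so the sum follows Prdx1 and does not describe the other members.

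Enzymes that act directly on superoxide and hydrogen peroxide were led by catalase. Cat, the peroxisomal enzyme that splits hydrogen peroxide, had 2101 counts (86.5 CPM) in the compressed library against 1637 counts (65.3 CPM) in the control library, a ratio of 1.32 (1.24 to 1.41). Sod1, the cytosolic copper-zinc superoxide dismutase, had 4269 counts (176 CPM) against 4005 counts (160 CPM), a ratio of 1.10 (1.05 to 1.15). Sod2, the mitochondrial manganese enzyme, had 2645 counts (109 CPM) against 2923 counts (117 CPM), a ratio of 0.934 (0.886 to 0.985). The cytosolic and mitochondrial dismutases thus lay on opposite sides of 1, although the Sod2 interval included 1 under loess scaling. Sod3, the extracellular form, had 3 counts against 5, under the CPM minimum, too few to detect a difference.

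Of 13 further genes in this system, 8 passed the minimum and 0 were called in either direction by the 25% rule. Their ratios ran from 0.842 for the oxidase Duox2 (0.699 to 1.01) and 0.899 for the superoxide and peroxide source Nox4 (0.789 to 1.02) to 1.01 for the peroxisomal import receptor Pex5 (0.953 to 1.08) and 1.07 for Duox1 (0.897 to 1.29). All 4 of these intervals included 1, and the median log2 ratio was -0.09.

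NADPH, which drives both the glutathione and the thioredoxin system, comes from malic enzyme and the pentose phosphate pathway. Me1, the cytosolic malic enzyme and an NRF2 target, had 9301 counts (383 CPM) in the compressed library against 7770 counts (310 CPM) in the control library, a ratio of 1.24 (1.20 to 1.27). G6pdx, the first and rate-setting enzyme of the pentose phosphate pathway, had 3662 counts (151 CPM) against 3258 counts (130 CPM), a ratio of 1.16 (1.11 to 1.22). Pgd, the other NADPH-forming step of that pathway, had 4317 counts (178 CPM) against 4787 counts (191 CPM), a ratio of 0.931 (0.893 to 0.970). The pathway's pair of NADPH-forming dehydrogenases thus lay on opposite sides of 1.

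The enzymes of the non-oxidative branch, which return pentoses to glycolysis, also differed. Tkt, transketolase, had 2666 counts (110 CPM) against 2444 counts (97.5 CPM), a ratio of 1.13 (1.07 to 1.19). Taldo1, transaldolase, had 1970 counts against 2099 and a ratio of 0.968 (0.910 to 1.03). The interval of Tkt lay above 1 and that of Taldo1 included it. Summed over the 4 pentose phosphate genes, counts were 12615 against 12588, a ratio of 1.03 (1.01 to 1.06).

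Of 15 further genes of NADPH supply, 14 passed the minimum, 2 were called higher and 1 lower by the 25% rule, and the median log2 ratio was 0.07. Nadk2, the mitochondrial kinase that makes NADP from NAD, was past 2-fold, with 2891 counts against 1400 and a ratio of 2.13 (1.998 to 2.27). Nadk, the cytosolic kinase, had 2874 counts against 3612 and a ratio of 0.821 (0.782 to 0.863). The kinase pair lay on opposite sides of 1 with counting intervals far apart. The next highest was Aldh1l1, a cytosolic folate enzyme, with 154 counts against 120 and a ratio of 1.32 (1.04 to 1.70). The lowest was Mthfd1, the cytosolic trifunctional folate enzyme, with 1203 counts against 1632 and a ratio of 0.761 (0.705 to 0.820).

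Targets with roles in quinone reduction and export differed little, apart from an exporter. Nqo1, the quinone reductase often used as a reporter of NRF2 activity, had 1425 counts (58.7 CPM) in the compressed library against 1417 counts (56.5 CPM) in the control library, a ratio of 1.04 (0.963 to 1.12). Osgin1, an oxidative stress-induced growth inhibitor, had 227 counts (9.35 CPM) against 255 counts (10.2 CPM), a ratio of 0.919 (0.765 to 1.10). Neither interval excluded 1. Abcc1, which exports glutathione conjugates, had 4518 counts (186 CPM) against 3758 counts (150 CPM), a ratio of 1.24 (1.19 to 1.30) with an interval above 1.

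Among 19 further genes of this kind, 16 passed the minimum, 3 were called higher and 2 lower by the 25% rule, with a median log2 ratio of 0.01. Ephx1, the microsomal epoxide hydrolase, had 1281 counts against 841 and the highest ratio, 1.57 (1.44 to 1.72). Pir, pirin, followed at 1.33 (1.06 to 1.67). The lowest were Trim16 at 0.742 (0.676 to 0.815) and the carbonyl reductase Cbr3 at 0.792 (0.674 to 0.931).

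Several antioxidant enzymes, among them Gpx1, Gpx4 and Txnrd1, are selenoproteins, which need dedicated machinery to insert selenocysteine. In a list of 16 genes of selenoprotein synthesis, other selenoproteins and ferroptosis, all passed the minimum, 2 were called higher and 0 lower by the 25% rule, and the median log2 ratio was 0.01. Sephs2, which makes the selenium donor, had 1437 against 1822 counts and a ratio of 0.814 (0.759 to 0.873), while Selenot, listed as Selt, had 0.826 (0.799 to 0.855). Pstk, a kinase acting on the selenocysteine tRNA, had 438 against 339 counts and a ratio of 1.33 (1.15 to 1.54), while Gch1, which starts tetrahydrobiopterin synthesis, had 110 against 79, a ratio of 1.43 (1.07 to 1.94). The 2 lowest and 2 highest genes all had intervals that excluded 1.

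**Figure D3:**
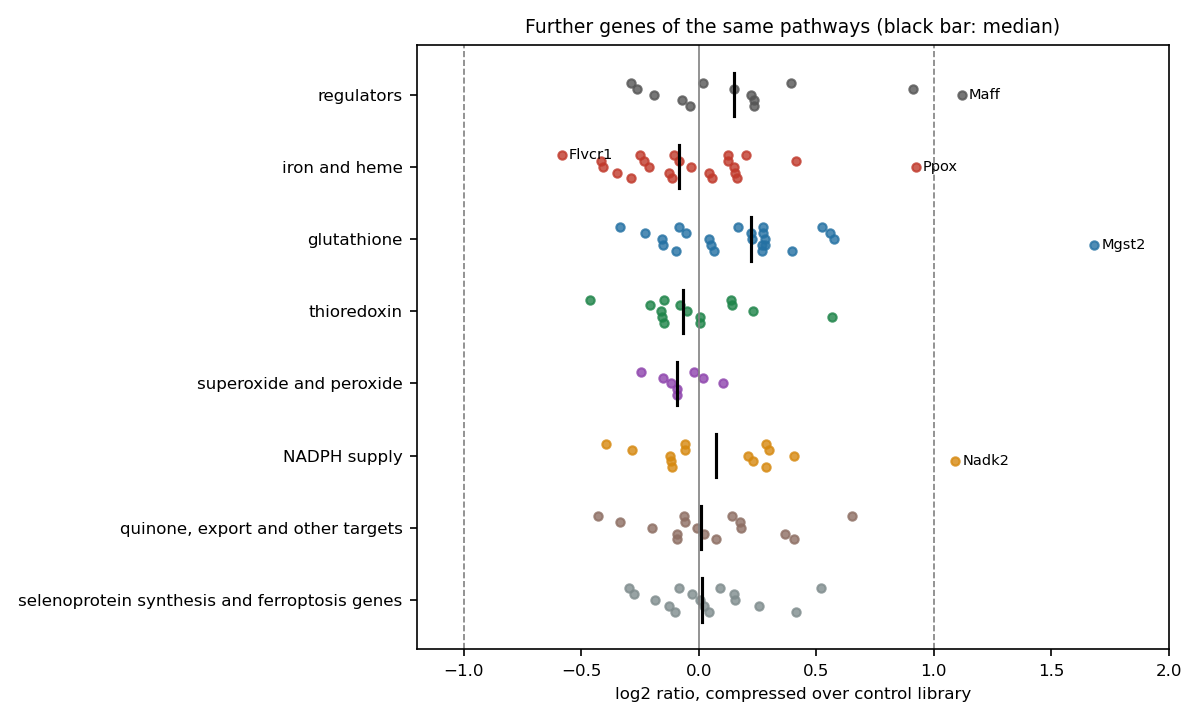
Log2 ratio of the compressed over the control library for the 128 of 154 further pathway genes above 1 CPM, by list, with each median as a black bar and dashed lines at 2-fold. Maff, Mgst2 and Nadk2 lie past 2-fold on the higher side and no gene does on the lower side, while Ppox and Flvcr1 are labelled as the extremes of the iron and heme list.

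Over all 154 further genes, 128 passed the minimum, 16 were called higher and 7 lower by the 25% rule (12.5% and 5.47%, against 14.3% and 11.4% of all genes). At 2-fold 3 were called higher (2.34%, against 3.06% of all genes) and 0 lower (against 0.929%), and the median log2 ratio was 0.01. Summed by system, the 4 iron and heme genes held 936 CPM in the compressed library against 800.5 CPM in the control library, a ratio of 1.17 (1.15 to 1.19), while the thioredoxin genes held 859 against 917 CPM, a ratio of 0.937 (0.920 to 0.955). The 12 glutathione genes held 678 against 709 CPM, a ratio of 0.956 (0.936 to 0.976), and the 5 NADPH genes 902 against 812 CPM, a ratio of 1.11 (1.09 to 1.13). The 3 genes of quinone reduction, export and other targets held 254 against 217 CPM, a ratio of 1.17 (1.13 to 1.22), and the 4 superoxide and peroxide genes 371 against 342 CPM, a ratio of 1.09 (1.05 to 1.12). The 2 regulators held 134 against 128 CPM, a ratio of 1.05 (1.002 to 1.11). Such sums follow their genes of highest count.

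**Figure D4:**
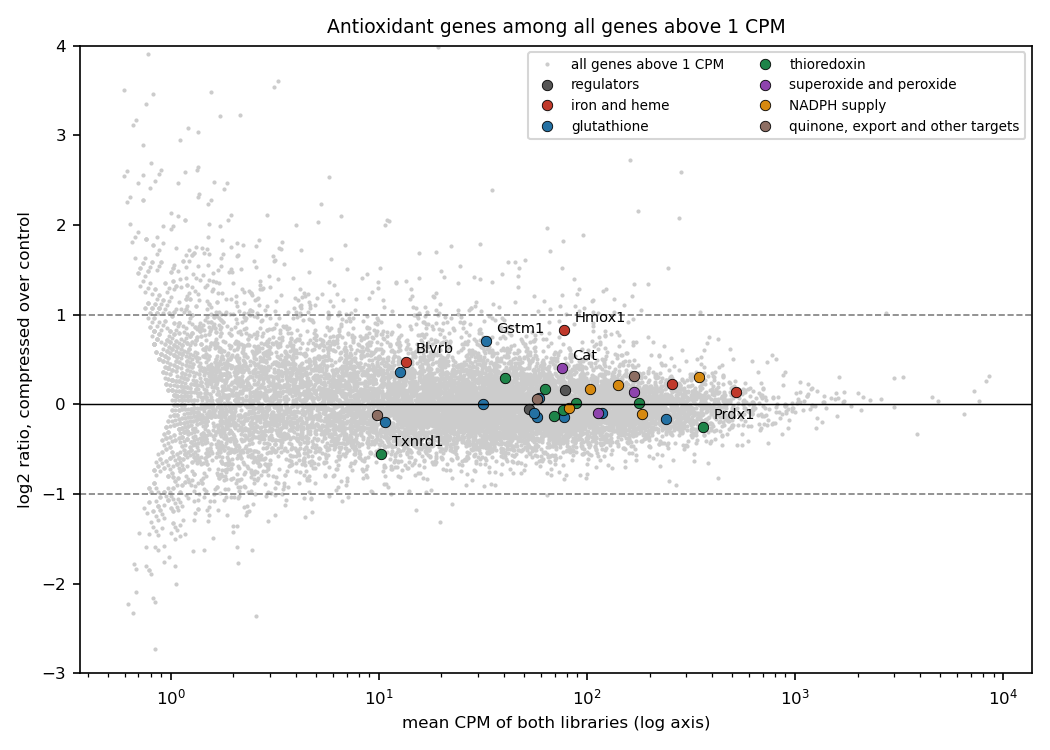
Log2 ratio of the compressed over the control library against the mean CPM of both libraries (log axis) for all 14001 genes above 1 CPM in either, with the 35 antioxidant genes coloured by system. All 35 lie within 2-fold, inside the grey cloud. Of the 35, Hmox1 and Gstm1 have the highest ratios and Txnrd1 the lowest. Among all genes, 428 were called at least 2-fold higher and 130 at least 2-fold lower. 5 genes outside the plotted range are not drawn.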

How the data were processed

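Values in the deposited table are raw read counts, as whole numbers for each gene, with no normalization by the authors. Per the submitters' processing notes, HISAT2 and the build GRCm38 were used. How reads were counted (tool, annotation, strand, multiple alignments) is not stated in the sources used here. Counts were scaled with TMM factors (edgeR 4.0.16, R 4.3.3). Ratios used a prior count of 0.5, and intervals are exact (Clopper-Pearson) at 95%. Reads are not independent molecules, so intervals and the floor of 3 counts cover counting error only. With a single library on each side, edgeR cannot estimate spread, so no p-value was computed. Alternatives used DESeq2 1.42.0 size factors, total counts, upper-quartile factors, a loess fit, other CPM minimums, another prior count and other interval rules.

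The 38 genes, their systems and the lists of further genes were chosen with earlier results of these data known. All 38 are described. From each further list, genes past 2-fold and the 2 highest and 2 lowest ratios are named. Txnrd2, Nxn, Sesn2, Txn2, Sesn1, Msrb3, Hmox2, Blvra, Slc7a11, Mafg, Mafk, Bach1, Gstm2, Gstm5, Slc11a2 and Uros were named after their values were seen. Older symbols, gene positions and windows came from RefSeq tables of GRCm38.p6.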

Additional observations from a re-analysis of the deposited data

How the results depend on the processing

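At an assumed coefficient of variation of 0.1 between cultures, 3 genes in place of 5 were called higher by the 25% rule, since the widened intervals of Cat and Gsta4 included 1, and the 1 call lower (Txnrd1) was unaffected. Over all 14001 genes those calls numbered 1302 higher and 839 lower, against 1997 and 1590. With loess scaling 7 were called higher, Me1 at 1.26 and Abcc1 at 1.27 being added. Over all 14001 genes, loess scaling gave 1916 calls higher and 1607 lower. That scaling left 5 intervals below 1 in place of 9, and the matching share of all genes was not computed. Total-count, DESeq2 and upper-quartile scaling, dropping the CPM minimum or raising it to 5, raising the prior count to 5, and dropping the interval requirement each left 5 higher and 1 lower. Over all genes, dropping the interval requirement gave 2488 higher and 1962 lower of 14001. Dropping the CPM minimum gave 2342 and 1829 of 22774, and raising it to 5 gave 1456 and 1256 of 11008. DESeq2 scaling gave 1904 and 1705 of 14044. The other 3 settings gave 1979 to 2071 higher and 1511 to 1604 lower of 14001. Without the 8 genes that have a named copy or close paralog with a row of its own, 27 remained, with 4 higher and 1 lower. The overlap of Txnrd1 with Eid3 was not addressed by any setting. No setting gave a call at 2-fold. The median log2 ratio of the genes ran from -0.001 to 0.049. No paired analysis was possible because each group has 1 library. The spread between cultures was not measured, so ratios near 1 carry an error that counting intervals do not show.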
